A study of Mus musculus with 74 samples.

Results

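The comparison described here is the change in the small intestine epithelium of wild-type mouse embryos between embryonic day 12 (E12) and day 14 (E14). It rests on 4 RNA-seq libraries, 2 at each stage, chosen by their labels from the 27 embryonic RNA libraries used here and the 74 samples of the series, which also covers forestomach, hindstomach, later stages and intestines that lack the homeobox gene Cdx2. Embryos were of the CD1 wild-type stock and untreated. At both stages the dissected small intestine, whose cells the labels call midgut epithelium, was dissociated with trypsin, cells carrying the surface protein Epcam were sorted by flow cytometry, and a low-input kit amplified the cDNA. The labels do not say how many embryos went into a library or whether the replicates came from separate litters. The p-values therefore measure a spread between libraries only, which the main fit pools over all 27 embryonic libraries in 13 groups. The labels do not give the sex of the embryos.

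Between these stages the mouse intestinal tube is lined by a proliferating pseudostratified epithelium, and villi with differentiated enterocytes form afterwards. Its identity depends on CDX2, and HNF4, GATA and KLF factors act on the genes of absorption, while Hedgehog and PDGF ligands from the epithelium signal to the mesenchyme below and Wnt and BMP signals later set apart the proliferating intervillus cells from the villus. Many brush border, lipid and secretory genes are known to be switched on before or as villi appear.

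The libraries were checked before use. Total counts were 25311636 and 26147081 at E12 and 62463167 and 20458113 at E14. Epcam stood at 857 and 833 CPM (read counts scaled to library size) at E12 and at 1429 and 1208 CPM at E14. Cdx2 was at 153 and 115 CPM against 123 and 152 CPM, so both genes were present in all 4 libraries. Cdx2 does not settle the region, since the libraries labelled E12 hindstomach also held it, at 116 and 160 CPM. The E12 pair was the least alike of the 13 embryonic groups: Spearman's rho between its replicates across genes was 0.947 against 0.993 for the E14 pair, and replicate 1 held 13232 genes with a count against 15507 in replicate 2. At E12, 165 genes with at most 3 counts in replicate 1 had at least 5 CPM in replicate 2, and 39 genes were the other way round, whereas no gene did this at E14. The Y-linked genes Ddx3y, Eif2s3y, Uty and Kdm5d had reads in both E12 libraries and 0 counts in both E14 libraries, and the forestomach and hindstomach libraries showed the same, so stage and the sex of the embryos cannot be told apart in this comparison. Summed CPM of 15 immune markers were 43.4 and 40.6 at E12 and 149 and 140 at E14, those of 10 smooth muscle markers 37.1 and 53.1 against 115 and 108, and those of 24 mesenchyme markers 744 and 726 against 735 and 836, or 581.5 and 554 against 503 and 531 without Fn1, fibronectin. The sums were lower at E14 for 15 erythroid markers, at 97.9 and 113.6 CPM against 57.8 and 51.5 CPM, and for 12 endothelial markers, at 57.3 and 46.1 CPM against 32.7 and 28.2 CPM. Of the 9 erythroid genes tested, 2 were called higher when all 27 embryonic libraries were fitted together, Alas2 and Epb4.2. Both held with each library left out, but neither was called with the 4 libraries fitted alone or with limma voom. Another 2, Hbb-bh1 and Slc4a1, were called lower, and both lost their calls without E14 replicate 1. The sum of 16 enteric neural markers, at 76.4 and 97.3 CPM against 57.4 and 55.6 CPM, was lower at E14 through 1 gene, Uchl1: the other 15 summed to 38.7 and 54.3 CPM at E12 and 52.3 and 51.95 CPM at E14, which overlap. Of the 12 endothelial genes 0 were called higher and 3 lower, Cdh5, Plvap and Sox18, and Plvap held with each library left out; without E12 replicate 2 the list had 2 higher and 5 lower, and without either E14 library 1 lower.

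**Figure D1:**
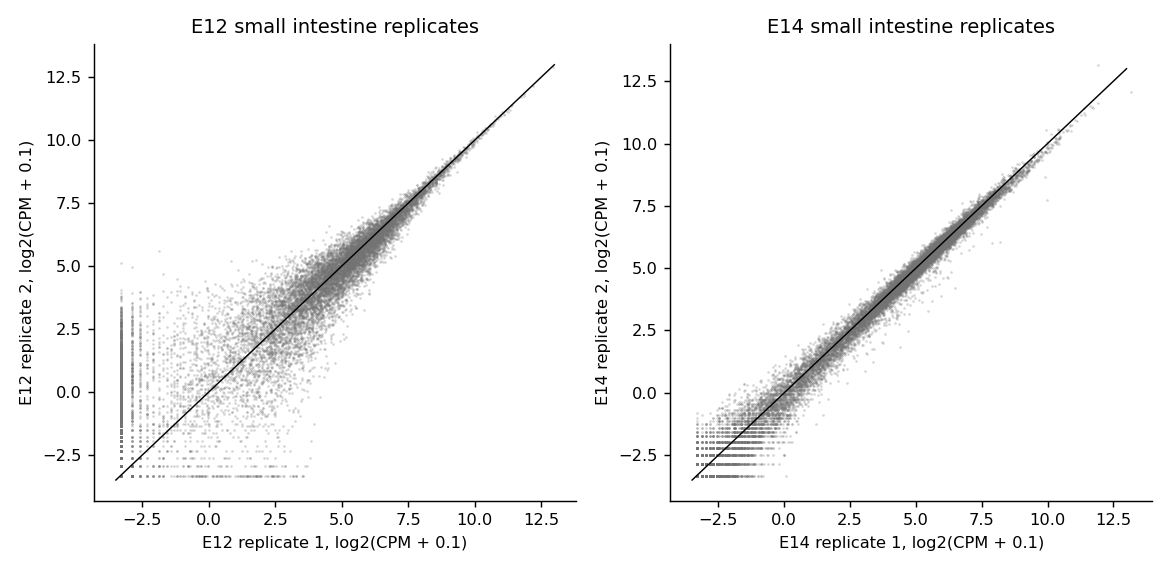
Levels of all 17239 tested genes in the replicate pairs of each stage, as log2(CPM + 0.1), 1 point per gene, with the line of equality. The E12 pair scatters more widely (rho 0.947) than the E14 pair (rho 0.993). Genes at the left edge of the E12 panel were almost without reads in replicate 1, and those high up along that edge had reads in replicate 2.

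Between E12 and E14, 2795 of 17239 tested genes (16.2%) changed, meaning an adjusted p below 0.05 and a log2 fold change of at least 1 in either direction in edgeR's quasi-likelihood test. Of these, 1952 (11.3%) were higher at E14 and 843 (4.89%) were lower. That fit takes its spread from 27 libraries in 13 groups, most of which are tighter than the E12 pair. A fit of the 4 libraries alone called 214 of 14291 genes (1.5%), 125 higher (0.875%) and 89 lower (0.623%), and 213 genes (1.24%) were called in both fits, 125 higher (0.725%) and 88 lower (0.51%). These 213 are described below as called in both fits. The count moved with single libraries, to 1762 without E14 replicate 2 and 4895 without E12 replicate 2, and 1255 genes, 1009 higher and 246 lower, were called the same way with each library left out in turn. A level is given in CPM scaled by the trimmed mean of M-values, and a change as a log2 fold change of E14 over E12 with its standard error. In bulk RNA from sorted cells, fewer cells of a type and less RNA per cell cannot be told apart.

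Of the 1952 genes called higher, 547 had at most 3 counts in both E12 libraries and 287 had at most 3 counts in E12 replicate 1 alone. Libraries of the stages did not overlap for 10166 of the tested genes (59%), which is the background for such a statement about any single gene. Changes also moved with the length of a gene on the genome: the median log2 fold change was -0.12 in the shortest of 4 equal groups of genes and 0.31 in the longest, and 7.37% against 16.5% of genes were called higher. The same gradient was present in forestomach, at -0.25 and 0.11, and its part in the results below was not tested.

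**Figure D2:**
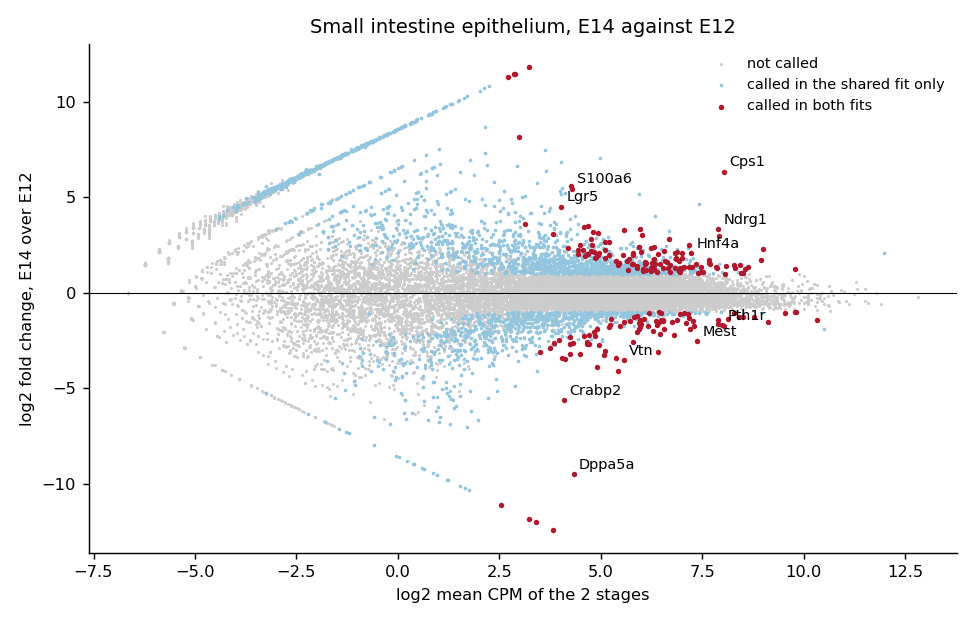
Log2 fold change of E14 over E12 (vertical axis) against the log2 mean CPM of both stages (horizontal axis) for 17239 genes. Red points are the 213 genes called in both fits, blue points were called in the shared fit only, and the straight diagonal lines are genes without reads at one stage, whose fitted value is not a measured fold.

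Among the largest rises of well-expressed genes called in both fits was that of a mitochondrial enzyme. Cps1, the first enzyme of the urea cycle and of intestinal citrulline synthesis, was at 3.35 and 9.34 CPM at E12 and at 454 and 578 CPM at E14, a log2 fold change of 6.34 ± 0.87 (SE; adjusted p = 3.63e-05). The stages did not overlap, which was a condition for naming a gene by size, and Cps1 was higher still at E16, at 3789 and 3357 CPM. Ndrg1, a gene induced by low oxygen and by differentiation, had the smallest adjusted p of the rises described here, 3.04e-12, with 46.2 and 39.9 CPM at E12 and 427 and 434 CPM at E14 (3.32 ± 0.12).

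Lgr5, the R-spondin receptor that marks intestinal stem cells later in life, was almost silent at E12, at 1.29 and 1.43 CPM, and stood at 29.9 and 32.4 CPM at E14 (log2 fold change 4.51 ± 0.38; adjusted p = 1.63e-07). Hsd17b2, a steroid dehydrogenase, rose from 1.22 and 1.4 CPM to 17.2 and 15.03 CPM. S100a6, which encodes a calcium-binding protein, rose from 0.609 and 1.11 CPM to 44.1 and 32.3 CPM (5.46 ± 0.33), although its adjusted p was 0.19 in limma voom with a spread for each group, which called 1273 genes (7.38%), 760 higher (4.41%) and 513 lower (2.98%). Lgals9, a galectin, went from 3.55 and 4.81 CPM to 49.9 and 44.7 CPM. Tmprss4, a membrane serine protease, Atp8b1, a phospholipid flippase of the apical membrane, and Pcdh1, a protocadherin, rose with log2 fold changes of 3.43 ± 0.25, 3.31 ± 0.23 and 3.14 ± 0.46. Pde3a, a phosphodiesterase of cyclic nucleotides, and Cbln2, a secreted cerebellin, were also among the largest rises. Cbln2 was high at E14 only among the small intestine stages, at 0.676 and 0.86 CPM at E12, 37.9 and 37.0 CPM at E14 and 3.88 and 0.983 CPM at E16.

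Other genes of nitrogen and fat metabolism were called in both fits, and those in this paragraph were chosen after their values were seen. Oat, ornithine aminotransferase, was at 185 and 163 CPM at E12 and 871 and 826 CPM at E14 (2.29 ± 0.28). Slc25a15, the mitochondrial ornithine carrier, was at 40.9 and 37.1 CPM against 118 and 109 CPM. Otc, which makes citrulline, was called in the shared fit only (0 and 1.11 CPM against 8.36 and 7.1 CPM), and Ass1 and Asl, the steps after it, were not called, with log2 fold changes of 0.03 and 0.45. Cpt1a, which admits fatty acids to mitochondria, Hadha of β-oxidation and Bdh1 of ketone metabolism rose with log2 fold changes of 2.67, 1.11 and 1.99.

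**Figure D3:**
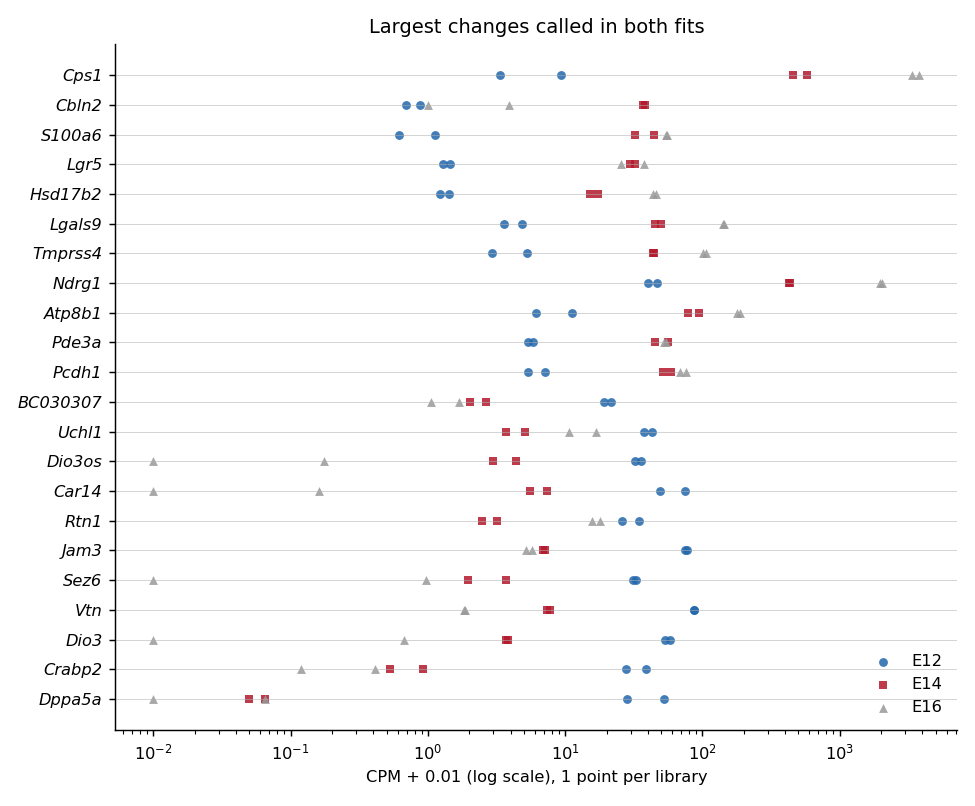
CPM + 0.01 on a log axis of the genes with the largest rises and falls among those called in both fits and reported here, 1 point per library, in small intestine at E12 (circles), E14 (squares) and E16 (triangles). The genes were chosen so that E12 and E14 libraries do not overlap. Cps1 and Ndrg1 continue upward at E16, and Cbln2 returns to 3.88 and 0.983 CPM.

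Among genes with at most 3 counts in both E12 libraries, only lower bounds on the fold can be given, with 3 counts per library as the floor. Leaving out Gm, Rik, Mir and Snor gene models, of which 4930539E08Rik had a bound of 159.8-fold, and by fitted log2 fold change, the 4 largest were Trim31, a ubiquitin ligase, at 0 counts in both E12 libraries and 18.98 and 18.7 CPM at E14, at least 191-fold higher; Eps8l3, a member of the actin-regulating Eps8 family, at 14.6 and 14.8 CPM and at least 149-fold higher; Tfec, a transcription factor of the MiT family, at 14.3 and 14.5 CPM and at least 146-fold higher; and Gpr128, an adhesion G protein-coupled receptor, at 16.7 and 9.54 CPM and at least 133-fold higher. All 4 were called in both fits, had 0 counts in both E12 libraries and were above 100 CPM in both E16 libraries.

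The promoter of Trim31 is printed because it holds the HNF4 letters searched for. RefSeq windows of 300 bases, from 250 bases before to 50 after the gene start, on build GRCm38.p6, were at hand for 14 of the 32 genes named for size. Trim31 lies at chr17:36897880-36898179 on the plus strand. The capitals mark the reverse complement of CAAAGTCCA (HNF4), whose match begins 130 bases before the start, and of TATAAA (the TATA box), whose match begins 41 bases before it.
Trim31: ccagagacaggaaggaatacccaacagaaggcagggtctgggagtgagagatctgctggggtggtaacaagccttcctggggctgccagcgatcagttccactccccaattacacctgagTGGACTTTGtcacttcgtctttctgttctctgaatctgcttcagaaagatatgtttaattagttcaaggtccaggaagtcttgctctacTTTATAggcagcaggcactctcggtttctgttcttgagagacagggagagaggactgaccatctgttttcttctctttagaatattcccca
The HNF4 letters were present, on either strand, in 0.504% of the 12705 promoters of tested genes, in 0.477% of all 27025 first-listed promoters, and in 2 of the 82 promoters matched for the genes called higher in both fits. The other was that of Mcu, the pore of the mitochondrial calcium uniporter, which went from 30.6 and 25.9 CPM to 81.4 and 79.1 CPM. TTTATG, a CDX core, was in 7.32% of those 82 promoters and in 7.2% of the 12705 promoters of tested genes. The other CDX core, TTTATT, was in 4.88% against 11.8%. The GATA letters AGATAA were in 7.32% against 7.28%. The TATA box was in 6.1% against 8.63%. A match in a window is a description of letters, and its absence says nothing of the factor.

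Most of the largest falls called in both fits are given here and in the next paragraphs. Crabp2, a carrier of retinoic acid, was at 27.7 and 38.7 CPM at E12 and 0.517 and 0.907 CPM at E14 (log2 fold change -5.62 ± 0.47; adjusted p = 1.63e-07). Vtn, which encodes the adhesive plasma protein vitronectin, was nearly identical within each stage, at 87.3 and 86.7 CPM against 7.76 and 7.34 CPM (-3.52 ± 0.52). Jam3, a junctional adhesion molecule, fell from 74.6 and 77.5 CPM to 7.16 and 6.9 CPM, and Car14, a membrane carbonic anhydrase, from 48.7 and 74.7 CPM to 7.35 and 5.52 CPM. Uchl1, a ubiquitin hydrolase, Rtn1, a reticulon, and Sez6, all best known from neurons, fell by 3.19, 3.40 and 3.49 on the log2 scale. The call of Sez6 rested on both E14 libraries, since its adjusted p was 0.0807 without E14 replicate 1 and 0.177 without E14 replicate 2. Of 16 enteric neural markers 1 was called higher, Ednrb, and 3 lower, Uchl1, Tubb3 and Stmn2, while 10 had a positive fold change (median 0.17), and their summed level without Uchl1 overlapped between the stages. Tubb3, a neuronal tubulin, was at 10.3 and 7.93 CPM against 3.85 and 2.96 CPM and Stmn2 at 14.7 and 5.7 CPM against 4.64 and 3.04 CPM, and both lost their calls without E12 replicate 1 or E14 replicate 2, Tubb3 also without E14 replicate 1. Without E12 replicate 1 the list had 1 lower, without E14 replicate 2 also 1, and without E12 replicate 2 it had 9 higher. The part of neural cells in these falls was not tested. BC030307, an uncharacterised transcript, fell from 19.2 and 21.6 CPM to 2.65 and 2.01 CPM.

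Dio3, which inactivates thyroid hormone, was at 53.4 and 58.0 CPM at E12 and 3.72 and 3.83 CPM at E14 (-3.88 ± 0.69; adjusted p = 0.000552). Its opposite-strand neighbour Dio3os was at 32.3 and 35.4 CPM against 4.37 and 2.96 CPM (-3.20 ± 0.70). Whether the counting used strand is not given in the sources used here, so reads from any stretch that both cover cannot be told apart. Their starts are printed because both genes fell together. On GRCm38.p6 the Dio3 window is chr12:110278980-110279279 on the plus strand and the Dio3os window chr12:110278019-110278318 on the minus strand; the capitals mark TATAAA, whose match begins 31 bases before the Dio3 start, and none of the 5 motifs searched is in the Dio3os window.
Dio3: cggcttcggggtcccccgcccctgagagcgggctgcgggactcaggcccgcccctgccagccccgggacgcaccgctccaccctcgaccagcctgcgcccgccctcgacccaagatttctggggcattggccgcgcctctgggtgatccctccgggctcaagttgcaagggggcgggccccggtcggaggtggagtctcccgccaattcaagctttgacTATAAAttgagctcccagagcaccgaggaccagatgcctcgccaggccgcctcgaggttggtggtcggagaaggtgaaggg
Dio3os: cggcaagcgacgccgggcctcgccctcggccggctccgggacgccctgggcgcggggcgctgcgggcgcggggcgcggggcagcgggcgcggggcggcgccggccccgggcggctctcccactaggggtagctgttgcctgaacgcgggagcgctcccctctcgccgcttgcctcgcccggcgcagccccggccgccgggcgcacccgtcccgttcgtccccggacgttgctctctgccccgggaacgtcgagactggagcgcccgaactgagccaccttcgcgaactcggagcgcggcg
Both genes lie in the imprinted Dlk1-Dio3 domain. Its other genes given here were chosen after their values were seen, though Meg3 is also a member of the imprinted growth list. Meg3, at 191 and 176 CPM against 90.5 and 66.1 CPM (-1.23), and Mirg (-1.76) were lower in the shared fit but not called with the 4 libraries alone. Dlk1 had 573 and 577 CPM against 300.1 and 289 CPM (-0.96, under the fold minimum). Rian, at 16.2 and 14.02 CPM against 12.7 and 10.1 CPM, and Rtl1, at 1.08 and 1.05 CPM against 0.912 and 0.237 CPM, were not called.

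Dppa5a was at 52.3 and 28.0 CPM at E12 and had 4 and 1 counts at E14, and Dppa3 was at 28.7 and 13.3 CPM with 0 counts in both E14 libraries, at least 264-fold lower. Both mark primordial germ cells and early embryos, and primordial germ cells pass through the gut before these stages. Of 8 germ cell markers, 3 were called lower, Dppa3, Pou5f1 (4.46 and 5.22 CPM against 0.109 and 0.0789 CPM) and Dnd1, and 0 higher, and Pou5f1 lost the call without E14 replicate 2 and Dnd1 without either E14 library. Ddx4, which defines later germ cells, had 0 counts at E12 and 9 and 1 counts at E14, and Kit, which epithelium and other cells also express, was at 41.5 and 31.8 CPM against 47.1 and 64.4 CPM. The part of germ cells in these falls was not tested. The other 3 of the 4 genes named as lower bounds of a fall were Y-linked: Eif2s3y, Ddx3y and Uty were at least 353-fold, 236-fold and 146-fold lower, and all 3 had reads again at E16, with Ddx3y at 13.9 and 15.7 CPM. Xist, the X inactivation transcript, overlapped between the stages, at 129.9 and 129.7 CPM against 289 and 65.6 CPM, and was not called. Kdm5c, the X-linked relative of Kdm5d, was called higher in both fits, at 34.3 and 33.8 CPM against 135 and 139 CPM, and stood at 134.9 and 106.6 CPM at E16.

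Other genes of retinoid handling were chosen after their values were seen, except for the list members Rbp4 and Aldh1a2, so their direction is no count over the pathway. Rbp4, the plasma carrier of retinol, was at 819 and 837 CPM at E12 and 315 and 269 CPM at E14 (-1.505 ± 0.15) and was called in both fits. Crabp1 (-4.53) and Aldh1a2, which makes retinoic acid (-2.08), were called in the shared fit only. Aldh1a2 stood at 53.0 and 23.5 CPM against 9.62 and 8.4 CPM. It is also 1 of 8 mesothelial markers, of which it alone was called lower and Upk3b, Upk1b and Msln were called higher. Upk3b, at 0 and 0.956 CPM against 15.3 and 17 CPM, held with each library left out, and without E12 replicate 1 or either E14 library it was the 1 marker called higher, against 5 without E12 replicate 2. Rarb, a receptor and target, at 23.1 and 49.5 CPM against 17.8 and 15.3 CPM, and Stra6, a retinol transporter, at 14.1 and 2.55 CPM against 1.62 and 2.6 CPM, were not called.

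Counts of list members called are to be read against all tested genes, of which 11.3% were higher and 4.89% lower. Limma voom, in which the wide spread of the E12 pair has its own weight, called fewer rises, among other lists in these: 8 of the transcription factors, 5 lipid, 1 goblet, 5 Wnt and stem cell, 3 Hedgehog, PDGF and BMP, 1 immune, 1 mesenchyme, 3 stress and 0 smooth muscle genes, against 16, 10, 8, 12, 7, 5, 5, 7 and 5 in the shared fit. All 36 transcription factors of the list for intestine and endoderm were tested, 16 were called higher and 4 lower, 4 of the rises and none of the falls were called in both fits, and 14 of the 16 rises held with each library left out. The median log2 fold change was 0.70, or 0.64 with genes at the floor set at their bound, beside 0.07 over all genes. Hnf4a, the nuclear receptor of the enterocyte and liver programme, was at 63.8 and 50.4 CPM at E12 and 219 and 262 CPM at E14 (2.08 ± 0.35; adjusted p = 0.000265). Elf3, an epithelial ETS factor, went from 35.9 and 51.8 CPM to 254 and 237 CPM (2.48 ± 0.27), Klf5 from 113 and 101 CPM to 326 and 288 CPM (1.52 ± 0.18), and Prdm1, a repressor of the mature enterocyte programme in fetal gut, from 82.2 and 71.6 CPM to 163 and 173 CPM (1.13 ± 0.22). None of these 4 genes overlapped between stages.

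Cdx1 was at 0 and 1.02 CPM at E12 and 12.1 and 10.8 CPM at E14 (4.45 ± 0.71), called in the shared fit but not with 4 libraries (adjusted p = 0.199), and it reached 324 and 299 CPM at E16. Cdx2 did not pass the test (0.04 ± 0.28; adjusted p = 0.96), and its sign turned under other scalings. Hnf4g rose (1.48 ± 0.31), as did Grhl3, at 0 and 1.37 CPM against 31.8 and 32.5 CPM, and the receptors Nr1i2, Nr1h4, Vdr, Ppara and Pparg. Gata4, Gata5 and Gata6 had log2 fold changes of 0.64, 0.77 and 0.43 and were not called. Each of the 4 falls depended on single libraries: Foxa2 (80.4 and 40.7 CPM against 22.1 and 19.3 CPM) was not called without E12 replicate 1, Klf4 not without E14 replicate 2, Pdx1, the duodenal and pancreatic factor (33.6 and 41.0 CPM against 17.1 and 14.2 CPM), not without either E14 library, and Grhl1 not without E12 replicate 1 or either E14 library.

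**Figure D4:**
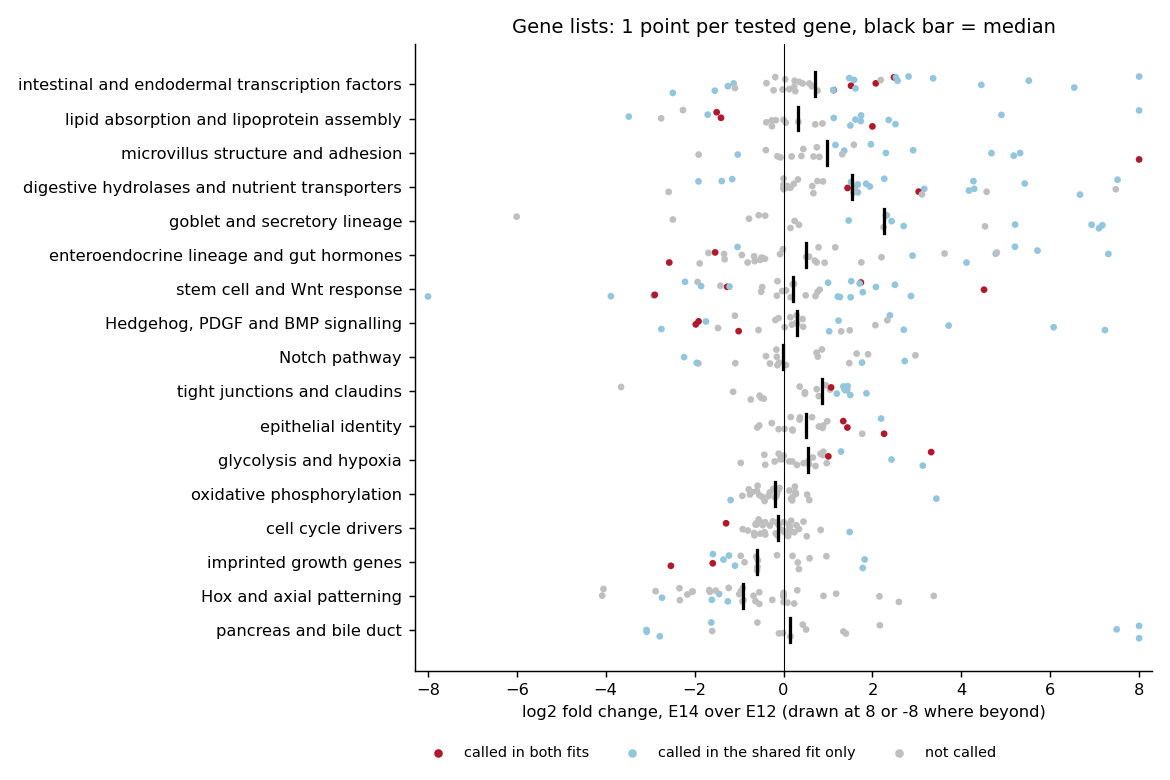
Log2 fold change of E14 over E12 for the tested members of 17 gene lists, 1 point per gene, red where called in both fits, blue where called in the shared fit only and grey where not called, with the list median as a black bar. Values beyond 8 are drawn at 8, and genes without reads at one stage are drawn at fitted values that are not measured folds.

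Lipid genes moved in opposite directions. Of 25 tested, 10 were called higher and 4 lower, and 6 and 4 of these held with each library left out. Mttp, the transfer protein that loads lipid onto lipoproteins, was at 16.9 and 12.5 CPM at E12 and 56.1 and 61.6 CPM at E14 (2.00 ± 0.21) and was called in both fits. Apob, the core protein of chylomicrons, rose from 52.4 and 82.4 CPM to 238 and 211 CPM, and the triglyceride enzymes Mogat2 and Dgat2 rose by 1.62 and 1.74. Apoa1, the main protein of high-density lipoprotein, fell from 356 and 337 CPM to 141 and 121 CPM (-1.41 ± 0.17) in both fits and was at 2541 and 2448 CPM at E16. Rbp2, the enterocyte retinol carrier, followed the same course at lower confidence, at 6.8 and 12.5 CPM, 3.27 and 2.52 CPM, and then 688 and 669 CPM at E16. Fabp1, the liver-type fatty acid binding protein, was at 15.8 and 18.5 CPM against 53.5 and 43.7 CPM, and its call was lost without E12 replicate 1 (adjusted p = 0.0653) and without E14 replicate 1 (adjusted p = 0.0643).

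The brush border list had 9 of 22 tested genes higher and 1 lower, with a median of 0.99, and 8 of the 9 rises held with each library left out. Vil1, the actin bundler villin, was at 19.4 and 41.1 CPM at E12 and 147 and 151 CPM at E14 (2.30 ± 0.25), with an adjusted p of 0.0624 in the fit of 4 libraries. Cdh17, the liver-intestine cadherin, showed the E12 replicates apart, at 0.203 and 25.5 CPM, but stood at 309 and 353 CPM at E14. Muc13, a transmembrane mucin, was at 0.406 and 6.18 CPM against 126 and 115 CPM. Myo1a and Myo7b, motors of the microvillus, rose by 5.32 and 2.92, and Eps8l3 was the member called in both fits. Espn, espin, was the fall, at 84.96 and 72.5 CPM against 41.8 and 35.2 CPM, and it was not called without E12 replicate 1 or E14 replicate 2.

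Among digestive hydrolases and transporters, 15 of 38 tested genes were higher and 3 lower, and 9 of the rises and 1 of the falls held with each library left out. The falls were 1 without E12 replicate 1, where Slc26a6 and Slc46a1 lost their calls. In both fits 2 were higher and 0 lower, and in voom 6 and 1. The median was 1.55, or 1.38 with genes at the floor at their bound. Anpep, aminopeptidase N, rose in both fits, from 15.2 and 12.7 CPM to 104 and 125 CPM (3.04 ± 0.35). Slc40a1, the iron exporter ferroportin, rose in both fits from 151 and 185 CPM to 433 and 476 CPM (1.44 ± 0.14), and Tfrc, the transferrin receptor, chosen after its value was seen, rose from 208 and 247 CPM to 712 and 794 CPM. Slc5a1, the sodium-glucose transporter, went from 0 and 2.55 CPM to 22.9 and 27.4 CPM, while Slc2a2, the basolateral glucose transporter, fell from 22.5 and 41.6 CPM to 7.89 and 9.19 CPM. The other brush border enzymes spanned a wide range of levels at E14. Enpep, a glutamyl aminopeptidase, rose from 20.1 and 10.5 CPM to 43.6 and 43.9 CPM, Mep1a, a meprin subunit, from 0 and 1.34 CPM to 11.6 and 13.1 CPM, and Alpi, intestinal alkaline phosphatase, from 0 and 1.53 CPM to 7.63 and 6.35 CPM, and these 3 held with each library left out, though only Enpep was called in voom. Lct, lactase, was called higher at a low level, at 0 and 0.319 CPM against 0.748 and 0.434 CPM, and lost its call without E12 replicate 1 or E14 replicate 1. Sis, sucrase-isomaltase, was at 0 and 0.0394 CPM at E14, and Akp3 and Treh were at 0 counts.

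Of 19 goblet and secretory genes tested, 8 were called higher, 0 lower and 0 in both fits, with a median of 2.25, or 1.47 with genes at the floor at their bound; 7 of the 8 held with each library left out, and 2 were called lower without E12 replicate 2. Fcgbp, a mucus protein, was at 0.0338 and 1.75 CPM against 28.9 and 38.9 CPM, and Tspan1 at 4.09 and 6.79 CPM against 31.2 and 27.5 CPM. Muc2, the gel-forming mucin, was at 2.4 and 0 CPM against 0.177 and 0.276 CPM, Tff3 at 20.9 and 21.3 CPM against 17.1 and 14.6 CPM, and neither passed the test.

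Of 33 tested enteroendocrine genes, 6 were higher and 3 lower, and the count of rises was 3 without E12 replicate 1 or E14 replicate 2 and 11 without E12 replicate 2. The falls were 1 without either E14 library. In both fits 0 were higher and 2 lower, and in voom 0 and 3. The median was 0.51, but -0.05 with genes at the floor at their bound. Pyy, peptide YY, fell in both fits, from 89.7 and 99.3 CPM to 16.4 and 15.3 CPM (-2.57 ± 0.68), although with an E14 library left out the shared fit did not call it. Cpe, the carboxypeptidase that trims hormone precursors, fell from 149 and 174 CPM to 59.2 and 51.7 CPM. Ghrl, ghrelin, and Gip, the duodenal incretin, appeared, at 0 and 0.223 CPM against 4.54 and 4.26 CPM and at 0 and 0.255 CPM against 2.57 and 2.09 CPM. Gcg, proglucagon, at 89.3 and 78.1 CPM against 61.3 and 54.9 CPM, was not called.

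Wnt and stem cell genes also moved both ways, 12 of 35 tested genes higher and 8 lower, with 6 and 5 held with each library left out. Besides Lgr5, the related receptor Lgr4 rose in both fits from 97.2 and 90.0 CPM to 285 and 341 CPM (1.74 ± 0.19). Rnf43, which removes Wnt receptors, Smoc2 and Ascl2, genes of the adult crypt base, rose with log2 fold changes of 1.71, 2.87 and 1.78. Olfm4, another crypt gene, was at 0 and 0.669 CPM against 1.16 and 0.71 CPM, and its call (adjusted p = 0.0439) was lost without E12 replicate 1 or either E14 library. Of the ligands, Wnt5a fell in both fits from 24.5 and 22.9 CPM to 2.76 and 3.63 CPM (-2.90 ± 0.44) and Wnt11 fell by 1.85. The Wnt-responsive factors Lef1 and Sp5 fell by 3.88 and 2.22, whereas Axin2, a general Wnt target, had 1.18 and 2.93 CPM against 5.14 and 6.67 CPM and lost its call without E12 replicate 1 or either E14 library. Bex1 fell from 513 and 519 CPM to 235 and 193 CPM.

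The BMP targets Id1, Id2 and Id3 fell, and Bmp2 and Ptch1 rose. The list's other rises were Bmp3, Bmp8b, Smad7, Pdgfa and Pdgfb, and its other falls Bmp4 and Chrd. Among these others only Bmp3 and Bmp8b held with each library left out, and only Pdgfa was called in voom. Id1 was at 93.2 and 101 CPM at E12 and 28.9 and 22.5 CPM at E14 (-1.91 ± 0.29), and Id3 was at 113 and 134 CPM against 33.4 and 29.5 CPM (-1.97 ± 0.35). Both are immediate BMP target genes and were called in both fits, as was Id2 (-1.01), which lost the call without E12 replicate 2 or E14 replicate 2. The ligand Bmp2 rose from 0.0338 and 4.01 CPM to 26.2 and 27.5 CPM, and Bambi, a BMP pseudoreceptor chosen after its value was seen, fell from 116 and 102 CPM to 33.9 and 32.1 CPM. Shh and Ihh, the epithelial Hedgehog ligands, were not called, at 153 and 166 CPM against 176 and 213 CPM and at 136 and 139 CPM against 170 and 171 CPM, whereas their receptor and target Ptch1 was at 0.778 and 6.34 CPM against 18.51 and 19.01 CPM (2.39 ± 0.57). Over the 29 tested genes of these pathways 7 were higher and 5 lower, with rises of 4 without E12 replicate 1 and 14 without E12 replicate 2, and falls of 3 without E12 replicate 1 or E14 replicate 1 and 2 without E14 replicate 2. In the Notch pathway 2 of 20 were higher, or 5 without E12 replicate 2, and 2 lower, or 1 without either E14 library. The Notch feedback gene Nrarp fell by 1.95 and the modifier Lfng rose by 2.73, both with each library left out in turn, while Hes1 had 207 and 208 CPM against 152 and 164 CPM and was not called.

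Few cell cycle genes passed the test. Of 40 drivers tested, Foxm1 was called higher and Ccnd1 lower, and the median was -0.13. Ccnd1, cyclin D1, was at 231 and 181 CPM at E12 and 86.9 and 81.0 CPM at E14 (-1.29 ± 0.20) and was called in both fits; Foxm1 lost its call without E12 replicate 1 or E14 replicate 2. Mki67 was at 99.1 and 91.8 CPM against 119.8 and 84.96 CPM. Among inhibitors, Cdkn2b and Btg2 rose, by 3.29 and 2.35, and 0 of 11 fell. Both rises held with each library left out, but neither was called with the 4 libraries alone or in voom.

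Some junction and epithelial genes rose. Of 22 tight junction genes 8 were higher and 0 lower (median 0.87), although 2 were called lower without E12 replicate 1, and of 20 epithelial genes 4 were higher and 0 lower (median 0.51; 8 higher without E12 replicate 2). Cdh1, E-cadherin, went from 244 and 206 CPM to 527 and 615 CPM (1.34 ± 0.13), Krt19 from 190 and 186 CPM to 534 and 482 CPM, and Ovol1, a repressor of mesenchymal genes, from 11.9 and 11.9 CPM to 55.5 and 59.0 CPM, all in both fits. Ocln and Cgn, proteins of the tight junction, rose by 1.37 and 1.502. On the mesenchymal side Cdh2, N-cadherin, chosen after its value was seen, and Vim, which lost its call without E14 replicate 2, fell in both fits, Cdh2 from 60.9 and 46.7 CPM to 7.12 and 8.99 CPM and Vim from 170 and 169 CPM to 84.8 and 72.3 CPM. The collagens Col1a1, Col6a1 and Col6a2 rose in the same libraries, Col1a1 from 6.46 and 11.7 CPM to 49.7 and 57.5 CPM, but none of them was called in voom. Of the 24 mesenchyme genes tested, 5 were called higher and 4 lower, with a median of -0.42. In both fits 0 were higher and 1 lower, and in voom 1 and 3. The list's other rises, Col3a1 and Pdgfrb, lost their calls with single libraries left out, while its other falls, Twist1, Barx1 and Postn, held. Actin regulators called in both fits and chosen after their values were seen included Myh9, non-muscle myosin, at 38.7 and 47.6 CPM against 185 and 185 CPM (2.10), Misp (2.14), Myo1d (1.61), Iqgap1 (1.28) and Flna (1.34). Of 10 smooth muscle genes 5 rose, Acta2, Actg2, Myh11, Tagln and Cnn1 (8 without E12 replicate 2), with Acta2 at 11.2 and 13.5 CPM against 40.8 and 33.4 CPM, and their part in these rises was not tested.

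In the glycolysis and hypoxia list 5 of 25 were higher and 0 lower (median 0.56), and Bnip3 joined Ndrg1 in both fits, at 193 and 160 CPM against 361 and 349 CPM, though it lost the call without E12 replicate 2 or E14 replicate 1. The glycolytic enzymes Pfkp and Hk1 rose by 3.13 and 2.43, while Aldoa, Gpi1 and Pfkl, with log2 fold changes of 0.90, 0.97 and 0.88, were under the fold minimum. Of 29 genes of oxidative phosphorylation 1 was higher, the coactivator Ppargc1b, and 1 lower, Ndufa1 (median -0.19), with 3 lower without E14 replicate 1 and 2 higher without E12 replicate 2.

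Of 20 imprinted growth genes 2 were higher and 6 lower (median -0.59), and Mest, at 276 and 287 CPM against 52.6 and 44.6 CPM (-2.54 ± 0.19), and Nnat, at 207 and 205 CPM against 70.0 and 66.4 CPM (-1.59 ± 0.16), were called in both fits. Hox and cofactor genes had 0 of 38 higher and 4 lower (median -0.92), Hoxa5 and Hoxb5 among them; 1 of the 4 held with each library left out, Hoxa5 and Hoxb5 lost their calls without E12 replicate 1 or either E14 library, and 4 were higher without E12 replicate 2; 9 of the 38 were at the floor at both stages. Lin28a, an RNA-binding protein of early development, was at 3.42 and 3.31 CPM against 0.122 and 0.315 CPM and lost its call without E14 replicate 1. Of 27 stomach genes 3 were higher, Sox21, Cldn18 and Pgc, or 7 without E12 replicate 2, and 4 lower, Sox2, Barx1, Gkn3 and Irx3. Sox2, a foregut factor, was at 6.63 and 3.41 CPM against 0.122 and 0.0394 CPM, and Pgc, a gastric zymogen, at 0 and 0.255 CPM against 3.7 and 3.87 CPM. The calls of Sox21 and Irx3 were lost with single libraries left out, and the other 5 held. Of 17 pancreas genes 3 were higher and 4 lower. The progenitor factors Ptf1a, Nkx6-1 and Nkx6-2 fell by 3.08, 1.63 and 2.79. The differentiation products moved both ways: Prss2, a trypsinogen, fell from 4.13 and 2.48 CPM to 0.381 and 0.394 CPM and held with each library left out, while Ctrb1, at 0 and 0.255 CPM against 25.8 and 23.3 CPM, Ins2, at 0 counts against 6.08 and 4.97 CPM, and Ins1 rose. Nkx6-1 and Ptf1a lost their calls without either E14 library, and also without E12 replicate 1 and E12 replicate 2 respectively, Ins1 lost its call without E12 replicate 1, and Cpa1, a pancreatic enzyme gene, was at 231 and 224 CPM against 160 and 143 CPM, and the part of pancreatic cells in these values was not tested. Of 19 liver genes 1 was higher and 6 lower (median -0.80, or -1.53 with genes at the floor at their bound), with 2 lower without E14 replicate 1 and 1 lower without E14 replicate 2. Gc and Ambp, liver plasma proteins chosen after their values were seen, fell in both fits, Gc from 146 and 159 CPM to 17.6 and 18.02 CPM. Alb, albumin, was at most 0.33 CPM in all 4 libraries. Hhex, an endodermal factor also chosen after its value was seen, fell by 1.38.

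Of 33 detoxification genes 13 were called higher and 2 lower (median 1.13), with 8 higher without either E14 library and 6 that held with each library left out. In both fits 1 was higher and 1 lower, and in voom 2 and 3. Ugt2b34, a glucuronosyltransferase, was at 89.6 and 111 CPM at E12 and 267 and 247 CPM at E14, and Gsta4, a glutathione transferase, was at 141 and 130 CPM against 53.5 and 44.8 CPM. Defence genes were 3 higher, or 5 without E12 replicate 2, and 2 lower, or 1 without E14 replicate 1, of 23, a share of higher calls near the 11.3% over all genes, and Lypd8, an apical protein that binds flagella, rose in both fits from 17.3 and 25.1 CPM to 98.4 and 82.0 CPM. Of 30 dissociation and stress genes 7 were higher and 0 lower, and Klf6, Zfp36 and Egr1 were called in both fits, Egr1 at 216 and 243 CPM against 485 and 459 CPM, with Egr1 not called without E12 replicate 1 and the list at 4 higher without that library, while Fos was at 279 and 243 CPM against 270 and 250 CPM. The immune list had 5 of 15 higher, or 8 without E12 replicate 1, among them the leukocyte gene Ptprc, at 0 and 0.382 CPM against 3.74 and 3.19 CPM, and Csf1r, at 0 and 6.18 CPM against 25.4 and 32.3 CPM.

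The change in small intestine was then set against the change of the stomach epithelium over the same days. The libraries labelled E12 hindstomach went against their label: Hoxb13 stood at 150 and 159 CPM, Hoxa10 at 104 and 120 CPM and Cdx2 at 116 and 160 CPM, and Gata4 at 0.369 and 0.569 CPM, while the E14 hindstomach libraries had 0.0353 and 0 CPM of Hoxb13 and 358 and 338 CPM of Gata4. The forestomach libraries also differed between the stages in genes that pattern the stomach, with Gata4 at 276.7 and 272.7 CPM at E12 against 55.7 and 58.1 CPM at E14 and Pdx1 at 27.5 and 24.6 CPM against 1.67 and 3.69 CPM, while Sox2 was at 185 and 160.2 CPM against 189.8 and 152.9 CPM. Forestomach alone is given beside the mean of both regions, and what part the dissected region has in either contrast was not tested. The change in small intestine differed from the mean stomach change for 970 genes (5.63%), 591 higher (3.43%) and 379 lower (2.2%), and from the forestomach change for 1178 genes (6.83%), 778 higher (4.51%) and 400 lower (2.32%). Of the 213 genes called in both fits, 68 differed from the mean stomach change and 55 of these differed from forestomach in the same direction. In forestomach, 82 of the 125 rising genes were higher in every E14 than in every E12 library and 22 were lower, and 77 of the 88 falling genes were lower and 4 higher. Over all tested genes, 29.1% were higher and 34.9% lower in forestomach by the same measure.

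Lgals9 was lower at E14 in forestomach, at 20.01 and 19.05 CPM against 3.17 and 3.25 CPM, with a difference of 6.10 (adjusted p = 8.88e-07). Cps1 was at most 1.90 CPM in every forestomach library of these days, S100a6 was at 18.1 and 15.7 CPM against 23.1 and 21.6 CPM there, and Hsd17b2 at most 0.518 CPM. Prdm1 was at most 1.14 CPM in those libraries. Igfbp2, a binding protein of insulin-like growth factors, was at 1010 and 947 CPM against 1580 and 1570 CPM in forestomach and fell in small intestine from 363 and 358 CPM to 123 and 109 CPM, a difference of -2.32 (adjusted p = 9.86e-06). Crabp2 was at 95.9 and 82.0 CPM against 70.3 and 72.6 CPM in forestomach, a difference of -5.30 (adjusted p = 7.56e-06). By contrast Dio3, Vtn, Mest and Uchl1 changed in forestomach by nearly the same amount, with differences of 0.13, -0.09, -0.06 and -0.16 and adjusted p of at least 0.962, which does not show that the changes were equal.

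**Figure D5:**
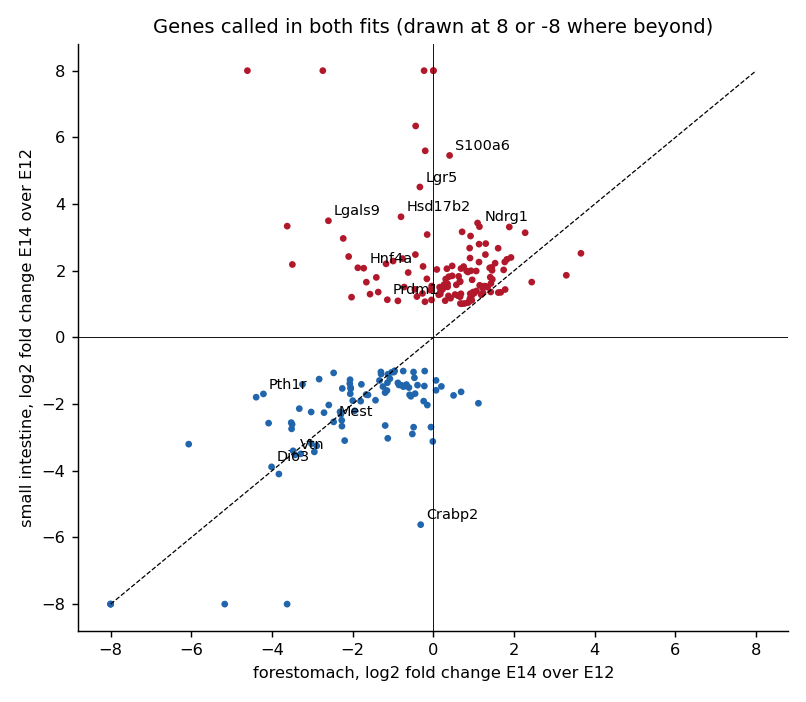
Log2 fold change of E14 over E12 in small intestine (vertical axis) against forestomach (horizontal axis) for the 213 genes called in both fits, red where higher and blue where lower in small intestine, with the line of equal change dashed. Most falling genes lie in the lower left, where forestomach fell too, and Lgals9 lies in the upper left; values beyond 8 are drawn at 8.

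The genes called in both fits were followed to E16, when villi have formed, as levels only, since both comparisons share the E14 libraries. Of the 125 rising genes, 83 were above both E14 libraries in both E16 libraries and 33 were below. Of the 88 falling genes, 62 were below both E14 libraries and 18 were above. Over all tested genes, 34.5% were above and 41.1% below by the same measure. Mttp reached 1750 and 1677 CPM at E16, Hnf4a 389 and 349 CPM and Oat 3328 and 3336 CPM. Lgr4 was back at 88.0 and 96.7 CPM and Prdm1 at 89.4 and 70.5 CPM, near their E12 levels. Apoa1, described above, fell first and rose later, as did Rbp2, which was called lower in the shared fit but neither with the 4 libraries alone nor in voom. Pth1r, the parathyroid hormone-related peptide receptor, at 389 and 390 CPM at E12 and 119 and 122 CPM at E14, was at 3.92 and 3.27 CPM at E16.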

How the data were processed

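RNA-seq of sorted epithelium was deposited as 1 table of raw read counts per gene symbol for all samples; per the submitters' processing notes STAR 2.5.3a, HTSeq and build mm9 were among the tools used, and whether counting used strand is not given in the sources used here. The deposited counts were analysed as they stand. In R 4.3.3, edgeR 4.0.16 (TMM scaling, filterByExpr minimum count 10, quasi-likelihood test, Benjamini-Hochberg adjustment) was fitted to 27 embryonic libraries in 13 groups, and 17239 of 24015 symbols were tested; 2 columns of no listed sample were not used. A gene was called at adjusted p below 0.05 and an absolute log2 fold change of at least 1. The 4 libraries alone, limma 3.58.1 voom, DESeq2 1.42.0, other scaling, filter, samples, thinning, replicate block and left-out libraries were alternatives. The members and lists were chosen with earlier results of these data known, and no list was tested. A few genes are not reported here. Genes named for size were the 12 largest changes per direction called in both fits, not overlapping, whose log2 CPM averaged 3 or more and whose counts passed the floor in a library of each stage, the 4 largest called per direction with both libraries of a stage at the floor, and the 4 smallest interaction p per direction among genes also called in both fits, without Gm, Rik, Mir and Snor models; list members and Cdx2 were named as well. The interaction compared the change in small intestine with the mean change of forestomach and hindstomach. Gene length is the genomic span in RefSeq for 16230 tested symbols. On simulated counts with 16964 genes tested, the shared fit recovered 28 of 100 genes changed 2-fold and 86 of 100 changed 4-fold, with 3 false calls. The fit of 4 libraries recovered 20 and 79, with 9 false calls. Every simulated library was drawn with the spread of the shared fit, so the wider spread of the real E12 pair was not simulated. These false calls therefore do not measure calls that come from that wider spread. Counts come from amplified cDNA without molecular identifiers, so the floor of 3 counts covers counting error only.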

Additional observations from a re-analysis of the deposited data

Results flagged for a closer look

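For 16 of the named genes the change in small intestine differed from the mean change of both stomach regions, tested as an interaction across all genes in edgeR, and the libraries labelled E12 hindstomach, which carry Hoxb13 and lack Gata4, enter that mean. On the log2 scale the differences were 6.41 for Cps1, 7.86 for Cbln2, 4.72 for S100a6, 3.41 for Lgr5, 3.76 for Hsd17b2, 3.50 for Lgals9, 1.18 for Tmprss4, 4.57 for Pde3a and 3.59 for Prdm1, all of which rose in small intestine. For the genes that fell they were -4.21 for Crabp2, -2.82 for BC030307, -2.34 for Gsta4, -3.30 for Slc38a5 and -2.04 for Igfbp2. For Tfec the fitted difference was 12.94, which is no measured fold because both E12 small intestine libraries had 0 counts.

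Pth1r had a positive difference of 4.10 although it fell in small intestine, because it fell further in the stomach libraries, from 3.52 and 2.48 CPM to 0.0428 and 0.253 CPM in forestomach and from 136 and 139 CPM to 0.6 and 1.05 CPM in the libraries labelled hindstomach. Against forestomach alone, the differences of Cbln2 (adjusted p = 0.0717), Pde3a (adjusted p = 0.468) and Slc38a5 (adjusted p = 0.073) were not called. Slc38a5, a glutamine transporter, fell in small intestine from 118 and 169 CPM to 34.3 and 30.9 CPM and in forestomach from 179 and 197 CPM to 16.7 and 20.8 CPM.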

How the results depend on the processing

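The count of genes called lay between 2697 and 3065 with RLE scaling, without the filter, with 20 wild-type libraries, with DESeq2, with a replicate block and with thinned counts. It was 1273 (760 higher, 513 lower) in limma voom with a spread for each group, 214 (125 and 89) with the 4 libraries only and 5159 (3053 and 2106) without a fold change minimum. Leaving out 1 library gave 1762 to 4895 calls, 1417 to 3527 higher and 345 to 1368 lower. The count called in both fits was 213, and became 1443 where DESeq2 replaced edgeR, 711 with voom, 397 with thinned counts and 111 to 4789 with 1 library left out, where the second fit has 1 lone library in an arm assumed to vary like the other stage. Of the 213, 193 were called with each library left out in the shared fit, 207 by voom and 212 by DESeq2. Differences from the stomach change were called for 970 genes, 448 with voom and 564 to 3377 with 1 library left out. Why the counts moved was not tested.

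Replicate numbers were not treated as pairs in the main fit. The replicate 1 minus replicate 2 differences of the stages correlated at 0.0048 across genes, and 2 pairs are too few to tell whether the samples were paired. With a replicate block 3041 genes were called, and 444 in both fits.

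Of 624 values of 52 followed genes under alternatives, 605 kept direction and side of the threshold, 13 lost the call and 6 changed sign. The changes of sign were in genes that were not called: Cdx2 was -0.0111 with RLE scaling, -0.0107 with DESeq2 and between -0.149 and 0.261 with 1 library left out, Sox9 between -0.493 and 0.12, and Lin28b between -1.32 and 0.593. RLE scaling moved the median of all genes by -0.05. Depth sets the floor of 3 counts at 0.102 and 0.0956 CPM at E12 and 0.0408 and 0.118 CPM at E14.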
